A study of Drosophila melanogaster with 53 samples.

Results

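Glutathione S-transferases (GSTs) were followed in whole adult Drosophila melanogaster males after irradiation. The members are the genes whose FlyBase symbol joins Gst to a class letter (D, E, O, S, T or Z) and a number. All 35 such genes were found among the 15222 genes measured. They comprise 11 delta, 14 epsilon, 1 sigma, 4 theta, 3 omega and 2 zeta genes. Of these, 33 had a mean of at least 10 normalized read counts over all libraries and were tested. GstD4 and GstD6, with means of 5.03 and 3.52, were not tested; they were at 0 in 14 and 20 of the 53 libraries.

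Cytosolic GSTs join the tripeptide glutathione to electrophilic compounds, which makes them less reactive and ready for export, and several also reduce organic peroxides. In insects the delta and epsilon classes are the large, clustered families known for detoxifying insecticides and other foreign compounds. GstD1 is often used as a reporter of oxidative stress through the transcription factor encoded by cnc. The single sigma gene, GstS1, is known as an abundant protein of the indirect flight muscle that conjugates the lipid peroxidation product 4-hydroxynonenal. Omega members act mainly as thiol transferases and dehydroascorbate reductases, and zeta members are homologues of maleylacetoacetate isomerase of tyrosine breakdown.

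Males were exposed once, 2 days after eclosion, to 10, 1000, 5000, 10000 or 20000 R (roentgen, a unit of exposure to ionising radiation). Controls received background radiation only. Messenger RNA of whole frozen flies was sequenced 2, 10 or 20 days after exposure. The series title names the question, whether the response has a threshold of dose. The 18 groups of dose and day hold 3 libraries each, except the day 20 controls with 2, and every dose of a day was set against the same controls. The table's columns carry no replicate number, and within a group a letter (a, b or c) names a library by its column. No label gives a strain, or says that libraries of a group came from separate cultures, so p-values measure the spread between these libraries, which may be technical.

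Reads recovered from the table came to between 15.4 M and 46.2 M a library (M, megareads), with a median of 23.3 M. Between 11213 and 14553 genes were above 0. The 6 libraries with the fewest such genes (at most 12229, against at least 12375 in the other 47) are called few-gene libraries here. Of these, 4 were exposed to 10 R, namely b and c of day 2, c of day 10 and c of day 20. The remaining 2 are library b of the day 20 controls and library c at 5000 R on day 20. In a wider exclusion 3 further libraries were left out: 10 R day 10 a and 10000 R day 10 c held 89258 and 116245 normalized counts of the yolk protein gene Yp1, against at most 1343 elsewhere, and 20000 R day 10 a held 90346 of the histone H1 genes, against at most 4259.

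Per kilobase of exon, GstD1 had the highest mean level of the family, at 19103 normalized counts per kb, followed by GstE12 at 7163 and GstE9 at 5546. GstT4 and GstS1 came next, and the lowest was GstD6, at 4.52 per kb. Before scaling by length, the 35 members together summed to between 51872 and 54504 normalized counts in day 2 controls, to between 55524 and 63134 in day 10 controls, and to 64060 and 64441 in day 20 controls. At 20000 R the sum lay between 57848 and 64380 on day 2, between 58468 and 73950 on day 10, and between 66382 and 67230 on day 20. At day 20 the lowest 20000 R library thus lay above both controls, at day 2 likewise above all 3 controls, and at day 10 the groups overlapped.

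The few-gene libraries held low values of many members, and this comes before the results because several of them rest on it. Among genes with a median of at least 50 in the other 47 libraries, 31 are members. In 10 R day 2 b, 22 of these 31 members lay below 10% of that median. The share was 71.0%, against 23.8% of all 10918 such genes and against 1574 of the 5247 whose exons span 725 to 2325 bp, the range of the members. In 10 R day 2 c it was 13 of 31, or 41.9%, against 13.8% of all such genes. At 10 R, 5 of the 31 members lay that low in library c of day 10 and 4 in library c of day 20. It was 7 in 5000 R day 20 c and 2 in control day 20 b. In the other 47 libraries 46 had none and 1000 R day 20 b had 1.

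GstE6 shows the size of this drop. It ranged from 415 to 2479 normalized counts in the other 47 libraries (median 1532), and read 299 in control day 20 b, 1.29 and 25.4 in 10 R day 2 b and c, 2.54 in 10 R day 10 c, 73.8 in 10 R day 20 c and 24.5 in 5000 R day 20 c. All 6 values lay below every other library. The same held in all 6 for GstD3, GstD9, GstE3, GstT2 and GstZ1, and GstZ1 was at 0 in each of them, against a median of 44.3 elsewhere. By contrast, GstD1, GstS1 and GstT4 stayed within or above the range of the other libraries in all 6, and GstS1 reached its highest value of the series, 28449, in 10 R day 2 b, where 22 members had dropped. The drop thus differed between members of the family within the same libraries.

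**Figure D1:**
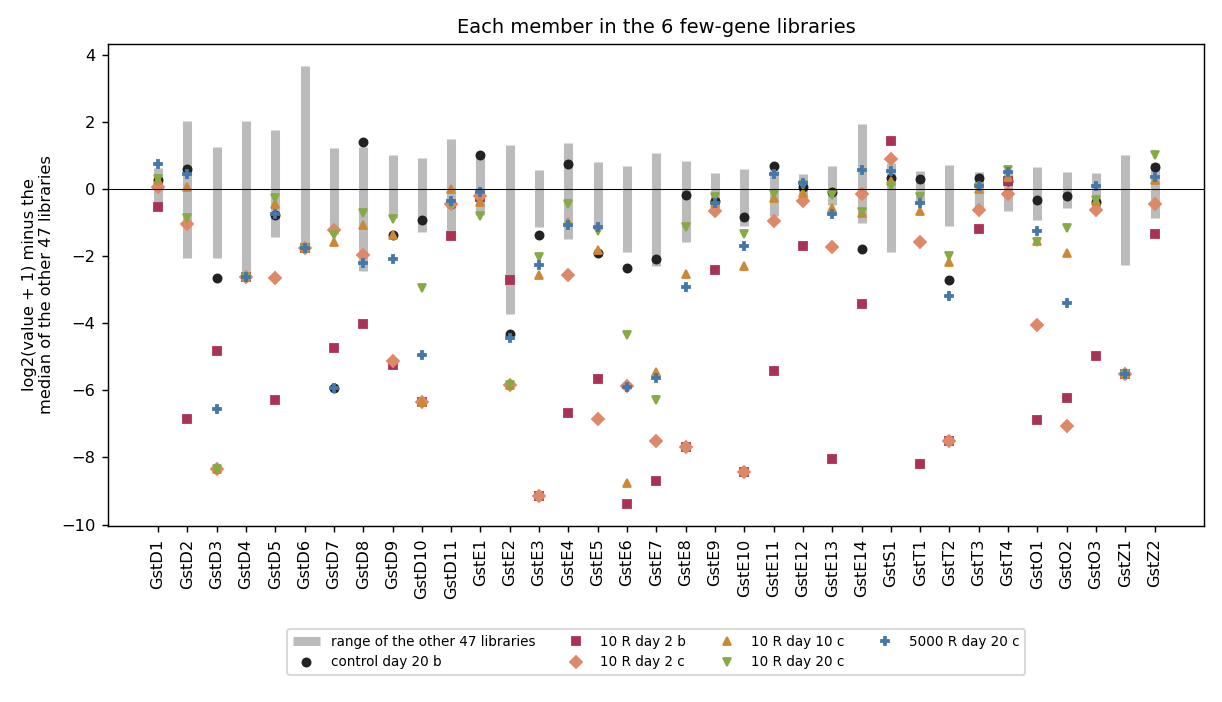
Each of the 35 members in the 6 few-gene libraries (symbols), as log2(normalized count + 1) minus the median of the other 47 libraries. The grey bars give the range of those 47 libraries. GstE6, GstE7 and GstD3 lie far below the bars, while GstD1, GstS1 and GstT4 stay near or above 0.

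At the highest dose a few members rose and the sigma gene fell. At 20000 R, averaged over the 3 days, 4 of 33 tested members rose (GstD1, GstD2, GstT3 and GstT4), where 7.72% of all genes tested were higher, and 2 fell (GstS1 and GstZ2), where 20.7% of all genes were lower. The median log2 change of the members was 0.36, against 0.08 over all genes, and 30 of 33 members had a positive value, as did 58.9% of all genes. Without the 6 few-gene libraries that median was 0.20 against 0.05, with 27 of 33 positive. At 10000 R 3 members rose (GstD2, GstT3 and GstT4), beside 6.42% of all genes, and 1 fell (GstS1), beside 21.2%. The members' median was 0.24 against 0.06, with 27 of 33 positive beside 56.5% of all genes. Without the few-gene libraries it was 0.12 against 0.02, with 22 of 33 positive. With 33 members, the counts that rose lie close to these backgrounds and do not set the family apart, and the counts that fell are below them.

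At 5000 R GstD1 alone rose over the days, where 1.37% of all genes were higher, and no member fell. The members' median was 0.19 against 0.00 for all genes. At 1000 R no member passed the limma test, and no gene did (0% of all genes). None of the 33 members reached an unadjusted p under 0.05 there. Tests with edgeR and DESeq2 called 0 members as well, beside 0 and 1 of all genes.

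At 10 R 13 members fell (GstD3, GstD9, GstD10, GstE3 to GstE8, GstE10, GstT2, GstO1 and GstO2) and none rose, beside 9.81% of all genes lower. Their log2 changes ran from -1.29 ± 0.42 (SE) for GstD9 to -3.18 ± 1.02 for GstD3. The call rests on the few-gene libraries, 4 of which are among the 9 libraries at 10 R. All 13 calls also ended without control day 2 b or c, control day 10 b or c, or control day 20 a. None of those controls is a few-gene library. Without the 6 few-gene libraries no member and no gene passed the limma test at 10 R (0% of all genes), no member reached an unadjusted p under 0.05, and the members' median moved from -1.14 to -0.08. That fit rests on library a alone at 10 R on day 2 and among the day 20 controls. With all libraries, edgeR and DESeq2 called 0 members at 10 R. They called 360 and 672 of all 12475 genes, of which 338 and 549 were higher.

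Leaving out the few-gene libraries lowered these medians at 10000 R and 20000 R, while more members passed the test. At 20000 R 8 rose, beside 11.8% of all genes, and 3 fell, beside 24.9%. GstD5, GstE8, GstE10 and GstE11 joined the 4 that had risen, and GstO1 joined GstS1 and GstZ2. At 10000 R 10 rose, beside 12.3%, and 2 fell, beside 25.7%. At 5000 R 4 rose (GstD1, GstD2, GstD5 and GstE11), beside 0.521% of all genes. The spread is pooled over all groups in these fits, so libraries of 1 group set the error of the others too. Without the few-gene libraries, library a alone stands for the day 20 controls in every change over the days. That group is then assumed to vary like the others. The counts also depend on the scaling. At 20000 R, quantile normalization of all libraries gave 11 higher and 1 lower members. It called 6428 of all 12475 genes, 4085 of them higher. TMM scaling gave 2 and 2, beside 3345 of all genes called, 638 of them higher. Under the first of these scalings, the all-gene median at 20000 R shifted from 0.08 to 0.27.

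**Figure D2:**
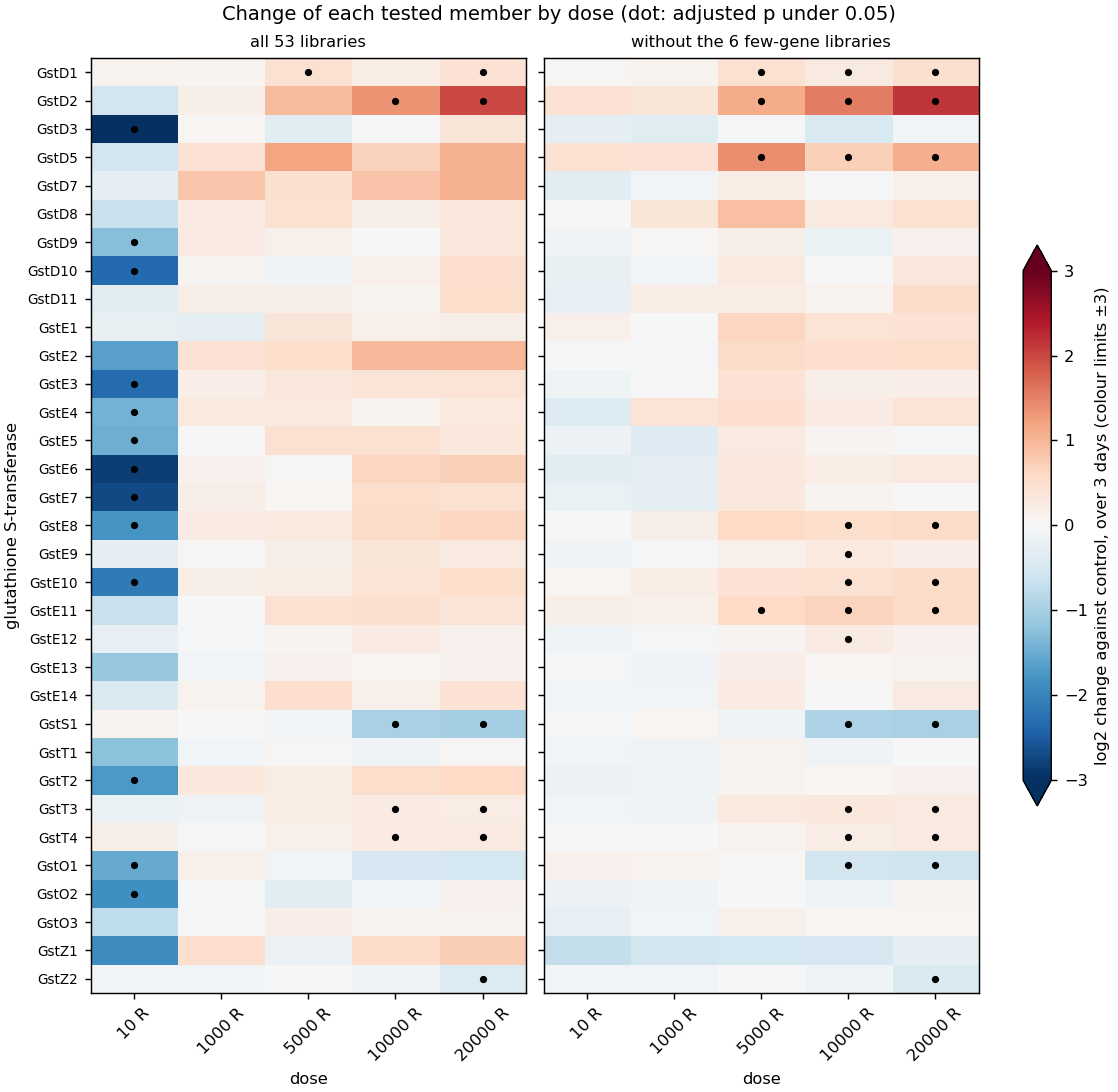
Log2 change of the 33 tested members at each dose against control, averaged over the 3 days, from all 53 libraries (left) and without the 6 few-gene libraries (right). Dots mark an adjusted p under 0.05. The 13 dots at 10 R on the left are gone on the right, while GstD1, GstD2, GstT3, GstT4 and GstS1 keep theirs at 20000 R.

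The sigma gene GstS1 kept its level for 2 days after irradiation and was then far lower at 10000 R and above. At day 10 the controls held 11199, 10271 and 11148 normalized counts. The libraries at 10000 R held 3982, 4140.1 and 3974, and those at 20000 R 2881, 3641 and 3863. Every irradiated library lay below every control. Group means were 10873 ± 522 (SD, n = 3), 4032 ± 93.7 (n = 3) and 3461 ± 515 (n = 3).

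At day 20 the picture was the same. Controls held 10592 and 13173, libraries at 10000 R 4079.6, 4297 and 3963, and libraries at 20000 R 3998, 3875 and 4049. The log2 change at 10000 R was -1.43 ± 0.16 (SE) on day 10 (adjusted p = 8.88e-10) and -1.52 ± 0.18 on day 20 (adjusted p = 3.78e-09). At 20000 R it was -1.66 ± 0.16 (adjusted p = 1.88e-11) and -1.57 ± 0.18 (adjusted p = 1.51e-09). Both doses thus gave falls of like size on both days, in libraries that share their controls.

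At day 2 the groups overlapped. Controls held 14436, 13430.1 and 14698, libraries at 10000 R 14722, 14326 and 14892, and libraries at 20000 R 17976, 15080.4 and 14224. The log2 changes were 0.05 ± 0.16 and 0.15 ± 0.16. The change of GstS1 over the days was itself tested, with a moderated F test in limma. It differed between days at 10000 R (F = 29.6, adjusted p = 3.47e-07) and at 20000 R (F = 40.1, adjusted p = 1.02e-08). GstS1 was the member called at both doses, where 14.1% and 13.8% of all genes were called. At 5000 R 0 members and 0.0561% of all genes were called, with 2 members at an unadjusted p under 0.05. There edgeR called 0 members and 4 of all genes.

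At the lower doses GstS1 did not pass the test. At 5000 R GstS1 held 10926, 9164 and 9133 on day 10, and 9433, 8084 and 15266 on day 20, the last in the few-gene library 5000 R day 20 c. The log2 changes were -0.16 ± 0.16 and -0.17 ± 0.18 (adjusted p = 1.00 and 0.898). At 1000 R it held 11764, 12627 and 12212 on day 10 and 10853, 9699.7 and 10281 on day 20. Every library at 5000 R on these days lay above every library at 10000 R; the step between these doses was not tested.

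Testis markers moved with GstS1. Of 12 listed testis markers 11 were tested. Over the days 11 fell at 10000 R and 10 at 20000 R, beside 21.2% and 20.7% of all genes lower. Their summed level lay between 74669 and 78340 normalized counts in day 10 controls, between 56843 and 78042 at 5000 R, between 2234 and 2737 at 10000 R and between 2056 and 3427 at 20000 R. The gene can was at 0 in all 3 libraries at 10000 R on day 10. On day 2 the sum was between 92425 and 97430 in controls and between 77844 and 94881 at 20000 R. Muscle markers did not fall at 20000 R over the days. Of 11 tested 2 rose, beside 7.72% of all genes higher, and 0 fell, beside 20.7% lower. Their sum on day 10 was between 183518 and 248125 in controls and between 225875 and 265092 at 20000 R. The part of either tissue in the fall of GstS1 was not tested. In RNA of whole flies, fewer cells of a type and less RNA per cell cannot be told apart.

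**Figure D3:**
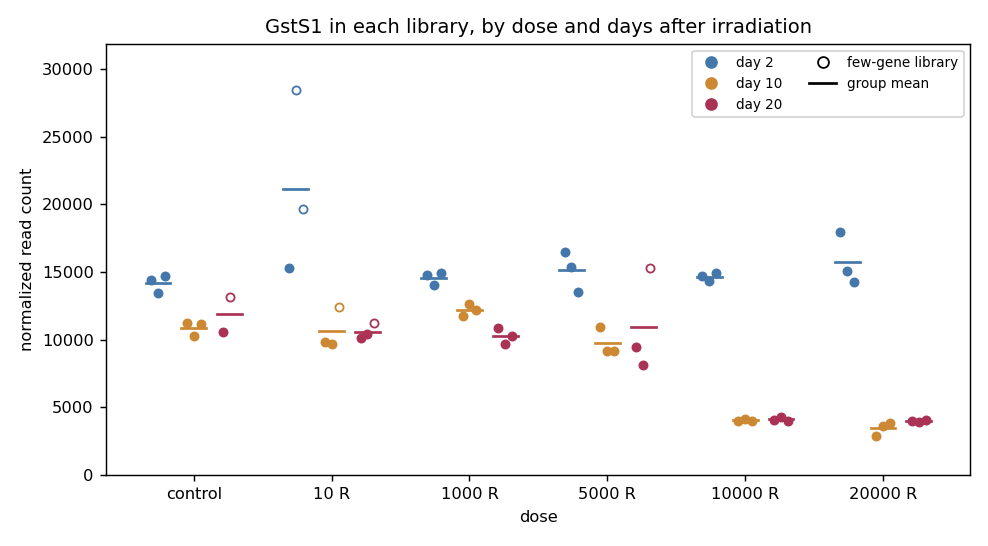
Normalized read counts of GstS1 (y axis) in every library, by dose (x axis) and day after irradiation (colours). Open circles are few-gene libraries and horizontal lines are group means. The 12 libraries at 10000 R and 20000 R on days 10 and 20 lie between 2881 and 4297, below all others.

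Of the 2 delta genes that rose over the days, GstD2 had the larger change. Its controls on day 10 held 35.6, 26.5 and 44.6 normalized counts, from 29, 29 and 38 reads. At 20000 R it held 221, 422 and 461 on that day, from 224, 388 and 782 reads. Every irradiated library was above every control, and group means were 35.6 ± 9.05 (SD, n = 3) and 368 ± 129 (n = 3). The log2 change was 3.29 ± 0.80 (SE, adjusted p = 0.00145).

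GstD2 was also higher at 10000 R on day 10, at 152, 227 and 276, a log2 change of 2.57 ± 0.80 (adjusted p = 0.0146). That call ended without control day 10 b or without 10000 R day 10 c, the library high in Yp1 (adjusted p up to 0.0608). At 5000 R on that day it held 93.8, 234 and 255, again above all controls, with a log2 change of 2.32 ± 0.80 that missed the threshold (adjusted p = 0.615). At 1000 R on day 10 it held 71.8, 89.8 and 81.6, and at 10 R 98.1, 81.9 and 119. The day 10 controls were the lowest group of the gene, below the day 2 controls at 68.6, 78.3 and 102. These dose values share those controls, so they are not independent of each other.

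On day 20 GstD2 held 379, 408 and 415 at 20000 R, against 81.3 and 172 in controls, the second in few-gene library b. The log2 change of 1.75 ± 0.90 missed the threshold (adjusted p = 0.179). On day 2 the values were 153, 193 and 113 at 20000 R and 68.6 to 102 in controls, a log2 change of 0.86 ± 0.80 (adjusted p = 1.00). Over the days GstD2 rose by 1.97 ± 0.48 at 20000 R (adjusted p = 0.00130) and by 1.36 ± 0.48 at 10000 R (adjusted p = 0.0307). The second call ended when any 1 of 6 libraries was left out: control day 2 a, control day 10 b, control day 20 a, 10000 R day 2 b, 10000 R day 10 c or 10000 R day 20 c (adjusted p up to 0.102).

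GstD1, the most abundant member, rose by less. On day 10 it held 10798, 12024 and 14368 in controls and 14812, 20724 and 24065 at 20000 R. All 3 irradiated libraries lay above the controls, the lowest of them narrowly. The log2 change was 0.66 ± 0.18 (adjusted p = 0.00463), and without 20000 R day 10 c it was no longer past the threshold (adjusted p = 0.0666). On day 2 GstD1 held 10966, 11625 and 12670.1 in controls, 14358, 18924 and 17330.1 at 5000 R, 13614, 11554 and 12588 at 10000 R, and 14757, 16776 and 15321 at 20000 R. The groups at 5000 R and 20000 R did not overlap the controls on day 2, and the group at 10000 R did.

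Over the days GstD1 rose by 0.46 ± 0.11 at 5000 R (adjusted p = 0.0123) and by 0.43 ± 0.11 at 20000 R (adjusted p = 0.00185). At 10000 R its change was 0.22 ± 0.11 (adjusted p = 0.127). The dose order of these changes is thus not a steady one, and the difference between doses was not tested. On day 10 alone it rose at 10000 R too, by 0.51 ± 0.18 (adjusted p = 0.0344), with 16862, 17434 and 18372 counts. That call was lost under TMM scaling, in a fit of day 10 alone, and when any 1 of 5 libraries was left out (control day 10 a or b, or any of the 3 at that dose).

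GstD5 rose at 3 doses once the few-gene libraries were left out. That leaves library a alone for the day 20 controls, where GstD5 held 41.2, against a median of 77.8 in the 47 libraries. Over the days its log2 change was then 1.40 ± 0.27 at 5000 R, 0.72 ± 0.26 at 10000 R and 1.09 ± 0.26 at 20000 R (adjusted p = 0.0207, 0.0277 and 9.60e-04). With all libraries the values were 1.19 ± 0.44, 0.70 ± 0.44 and 1.07 ± 0.44, and none passed (adjusted p = 0.110, 0.260 and 0.0642). On day 10 GstD5 held 56.4, 51.3 and 79.9 in controls, 92.8, 189 and 153 at 5000 R, 82.1, 112 and 73.1 at 10000 R, and 149, 152 and 95.5 at 20000 R. The groups at 5000 R and 20000 R lay above the controls, and the group at 10000 R overlapped them. At 1000 R GstD5 held 84.0, 97.2 and 74.2 on that day, and at 10 R 58.2, 103 and 56.8. Both of these lower doses overlapped the controls as well as the groups at 5000 R and 20000 R.

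GstD7 passed at 20000 R on day 20, by 3.10 ± 1.14 (adjusted p = 0.0454), and this rests on a single control. It held 52.9, 41.3 and 85.1 at that dose and 44.8 and 0 in the controls, the 0 in few-gene library b. Without that control the log2 change was 0.35. None of the other delta genes passed at 5000 R or more in any comparison with all libraries.

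**Figure D4:**
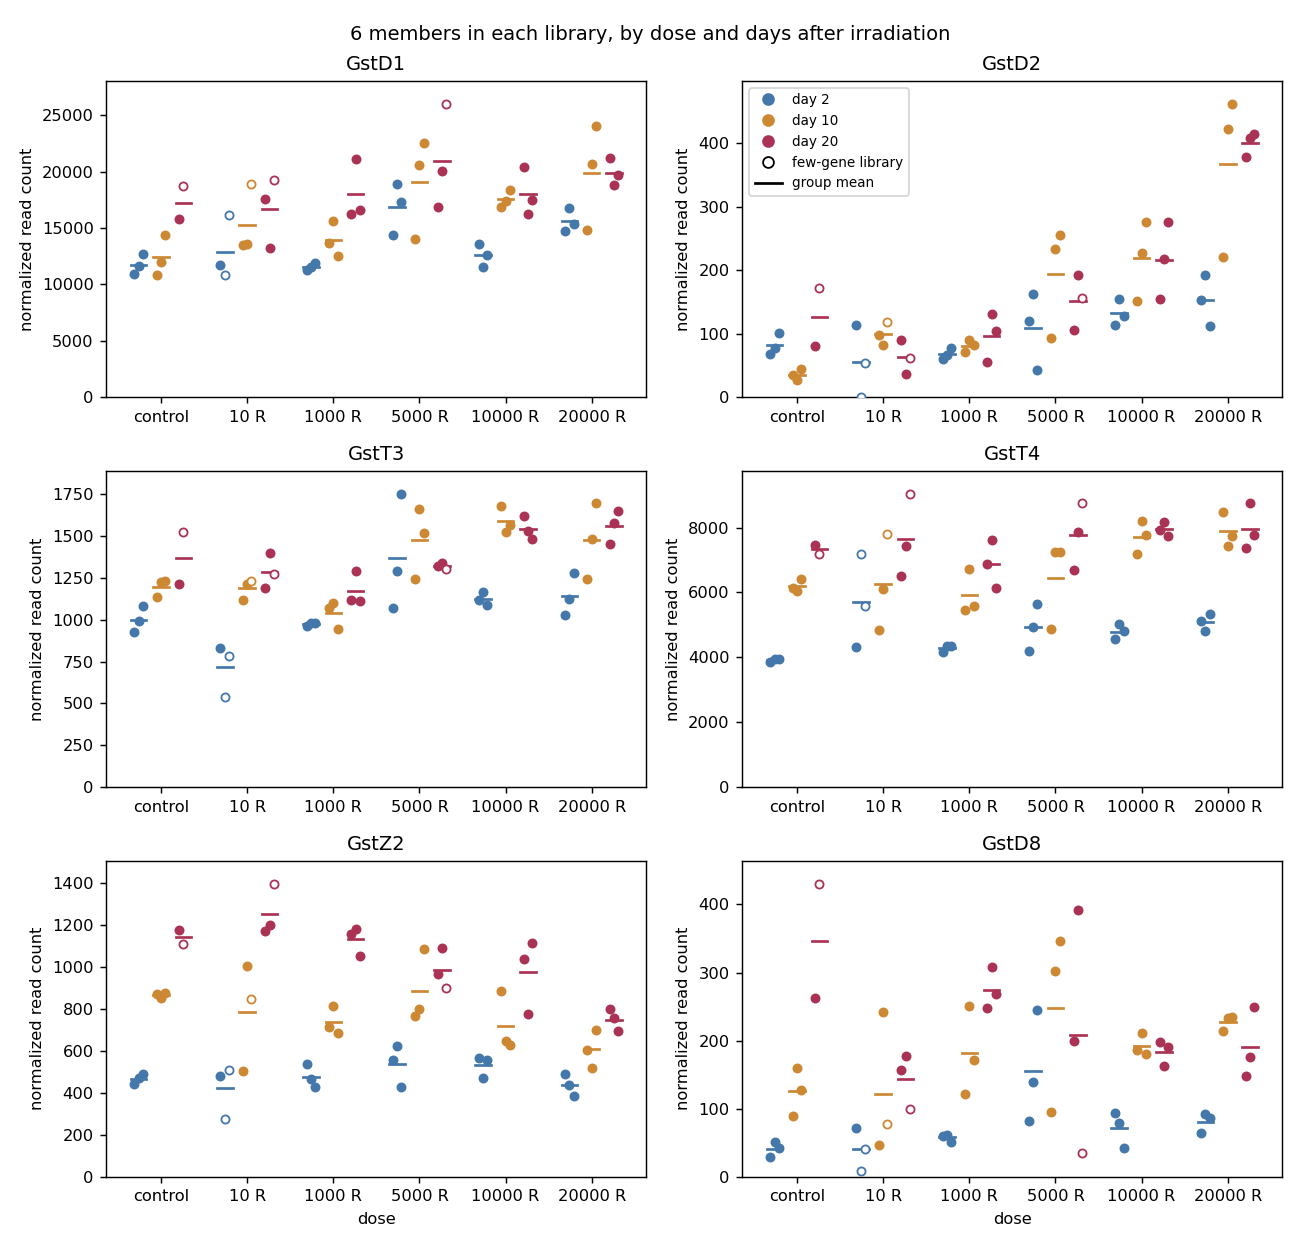
Normalized read counts (y axes, each from 0) of GstD1, GstD2, GstT3, GstT4, GstZ2 and GstD8 in every library, by dose (x axes) and day (colours). Open circles are few-gene libraries and horizontal lines are group means. GstD2 climbs to 221 to 461 at 20000 R on days 10 and 20, while GstT4 and GstZ2 differ mainly between days.

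No epsilon gene passed at 5000 R or more with all libraries. Leaving out the few-gene libraries leaves library a alone for the day 20 controls. There GstE8 held 515, GstE10 166 and GstE11 287. Their medians in the 47 libraries were 470, 345 and 377. Without the few-gene libraries 3 of the 14 rose at 20000 R over the days. GstE8 rose by 0.58 ± 0.19 (adjusted p = 0.0137), GstE10 by 0.55 ± 0.15 (adjusted p = 0.00361) and GstE11 by 0.58 ± 0.13 (adjusted p = 4.10e-04). The same 3 rose at 10000 R, by 0.52 ± 0.19, 0.45 ± 0.15 and 0.67 ± 0.13. GstE9 and GstE12, the abundant epsilon members, rose there by 0.28 ± 0.09 and 0.24 ± 0.07 (adjusted p = 0.0126 and 0.00654).

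GstE11, described after its values were seen, was called at 5000 R, 10000 R and 20000 R over the days without the few-gene libraries. On day 10 it held 213, 314 and 269 in controls, 378, 496 and 473 at 5000 R, 424, 503 and 535 at 10000 R and 379.7, 403 and 547 at 20000 R. All 9 libraries at these doses lay above the 3 controls. At 1000 R GstE11 held 258, 403 and 333 on that day, and at 10 R 301, 344 and 312. Some libraries at the lower doses thus also lay above all 3 controls. For GstE2 the groups overlapped on day 10, at 50.3, 49.4 and 74.0 in controls and 44.5, 48.9 and 79.0 at 20000 R. On day 20 the GstE11 controls were 287 and, in few-gene library b, 607, while the 3 libraries at 10000 R held 497, 498 and 513. The second control alone is above them. Exons of GstE1 and GstE10 overlap on opposite strands in the reference annotation, as do those of GstE9 and imd, GstE12 and CG3894, and GstE13 and CG18659. Whether counting used the strand is not given in the sources used here, so reads of such pairs cannot be told apart.

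The theta genes GstT3 and GstT4 rose a little at the 2 highest doses. GstT3 held 1137, 1228 and 1233 in day 10 controls, 1683, 1525 and 1569 at 10000 R and 1244, 1485 and 1702 at 20000 R. Both irradiated groups lay above the controls. Over the days the log2 change of GstT3 was 0.25 ± 0.08 at 10000 R (adjusted p = 0.01998) and 0.22 ± 0.08 at 20000 R (adjusted p = 0.0413). On day 10 it was 0.41 ± 0.14 at 10000 R (adjusted p = 0.0293), a call that ended without any 1 of 5 libraries (all 3 controls of that day, and 10000 R day 10 a or c).

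GstT4 held 3855, 3952 and 3962 in day 2 controls and 5118, 4809.8 and 5343 at 20000 R on that day. On day 10 it held 6142, 6039.7 and 6415 in controls and 8463, 7441 and 7743 at 20000 R. The groups did not overlap on either day, though on day 20 they did. Over the days GstT4 rose by 0.28 ± 0.09 at 20000 R (adjusted p = 0.0183) and by 0.24 ± 0.09 at 10000 R (adjusted p = 0.0472). Under TMM scaling none of these 4 calls over the days held (adjusted p from 0.0608 to 0.199). The call of GstT4 at 10000 R ended when any 1 of 31 libraries was left out, that of GstT3 at 20000 R for any 1 of 10, and that of GstT3 at 10000 R without control day 20 a.

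Of the omega genes, none passed at 5000 R or more with all libraries. Leaving out the few-gene libraries leaves library a alone for the day 20 controls. Without the few-gene libraries GstO1 fell by 0.56 ± 0.15 on the log2 scale at 10000 R (adjusted p = 0.00363) and by 0.59 ± 0.15 at 20000 R (adjusted p = 0.00242). On day 10 it held 401, 280.1 and 307 in controls, 220.2, 149 and 139.8 at 10000 R and 217, 176 and 167 at 20000 R, with all 6 irradiated libraries below the controls. On day 20 it held 265.0 and 215 in controls, 161, 161 and 267 at 10000 R and 181, 233 and 194 at 20000 R, and the groups overlapped. Testis markers fell in these same libraries, as given for GstS1. The other 2, GstO2 and GstO3, changed by less; exons of GstO2 overlap those of se, itself an omega-class enzyme of eye pigment synthesis, on the opposite strand.

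The zeta gene GstZ2 was lower at 20000 R. On day 10 it held 872, 853 and 875 in controls and 605, 521 and 699 at 20000 R, and on day 20 1179 and 1109 in controls and 798, 756 and 696 at 20000 R. All 6 irradiated libraries lay below the controls of their day. Over the days GstZ2 fell by 0.41 ± 0.12 on the log2 scale (adjusted p = 0.00673), and on day 20 by 0.61 ± 0.22 (adjusted p = 0.0421). On day 10 the change was -0.52 ± 0.20 (adjusted p = 0.0567). Under quantile normalization the value over the days was -0.22, past the threshold no longer (adjusted p = 0.132). The call on day 20 ended when any 1 of its 5 libraries was left out.

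By single days, no member passed at day 2. At 5000 R, 10000 R and 20000 R the limma calls on day 2 were 0 of 33, beside 0.449%, 0.0962% and 0.16% of all genes, and 4, 0 and 2 members had an unadjusted p under 0.05. At 5000 R none passed on day 10 or day 20 either, beside 0.016% and 0.473% of all genes, with 4 and 1 members at an unadjusted p under 0.05. In these 5 comparisons edgeR called 0 members and DESeq2 1, GstD2 at 5000 R on day 10. Of all genes, edgeR called at most 20 in any of them and DESeq2 at most 81, with 5 at 5000 R on day 10. At 10000 R 3 members rose on day 10 (GstD1, GstD2 and GstT3), beside 2.21% of all genes, and GstS1 fell, beside 19.9%. On day 20 GstS1 fell, beside 16.7%. At 20000 R 2 members rose on day 10 (GstD1 and GstD2), beside 2.72%, and GstS1 fell, beside 18.7%. On day 20 GstD7 rose, beside 5.6%, and GstS1 and GstZ2 fell, beside 16.9%.

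Some members rose with age in unirradiated flies. From day 2 to day 10, 2 of 33 rose (GstT4 and GstZ2), beside 1.74% of all genes higher, and none fell. From day 2 to day 20, 3 rose (GstD8, GstT4 and GstZ2), beside 3.9%, and none fell. GstZ2 went from 444, 470.0 and 491 at day 2 to 872, 853 and 875 at day 10 and 1179 and 1109 at day 20, with no overlap between days. Its log2 change from day 2 was 0.89 ± 0.20 at day 10 (adjusted p = 0.00436) and 1.29 ± 0.22 at day 20 (adjusted p = 9.12e-05). For GstZ2, the rise with age and the fall at 20000 R are thus of opposite sign.

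GstT4 rose with age from 3855, 3952 and 3962 at day 2 to 6142, 6039.7 and 6415 at day 10 and 7460.1 and 7195 at day 20, again without overlap. The log2 changes were 0.66 ± 0.15 (adjusted p = 0.00633) and 0.90 ± 0.17 (adjusted p = 3.41e-04). GstD8 held 29.1, 50.9 and 42.4 at day 2, 89.6, 160.2 and 128 at day 10, and 263 and 430.1 at day 20. Its log2 change at day 20 was 3.05 ± 0.68 (adjusted p = 0.00248). Without control day 20 b this call ended, while the log2 change was still 2.69. Library a alone then stands for day 20.

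Without the few-gene libraries more members changed with age. From day 2 to day 10, 6 rose, beside 3.94% of all genes, and 1 fell, beside 2.32%. GstD8, GstE8, GstE9 and GstE12 joined GstT4 and GstZ2, and GstS1 fell by 0.38 ± 0.09 (adjusted p = 0.00575). From day 2 to day 20, where 1 control then stands for day 20 and is assumed to vary like the other groups, 5 rose, beside 3.63%, and 2 fell, beside 2.26%. Muscle markers were read in the fit of all libraries, where GstS1 did not pass. From day 2 to day 10, 7 of 11 tested fell and none rose, with a median log2 change of -1.38. Of all 12475 genes 344 were called there, 217 of them higher. The part of muscle in the change of GstS1 with age was not tested.

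Of the genes around the family, a pair fell steeply at 20000 R. Of 13 tested genes of glutathione synthesis and regeneration, 1 rose and 2 fell over the days, beside 7.72% of all genes higher and 20.7% lower, with a median log2 change of 0.02. Grx1t, a glutaredoxin, fell by 4.47 ± 0.20 and Trxr2, a thioredoxin reductase, by 3.81 ± 0.24 on the log2 scale. On day 10 Grx1t lay between 1310 and 1349.5 normalized counts in controls and between 5.44 and 18.9 at 20000 R, in the libraries where testis markers fell. Ggt-1, a gamma-glutamyl transpeptidase that breaks down glutathione, rose by 0.28 ± 0.10 (adjusted p = 0.0271).

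Against the same 7.72% of all genes higher, 2 of 7 regulators of detoxification rose and none fell: Xrp1, a stress-responsive transcription factor, by 0.35 ± 0.07 and Atf3 by 0.37 ± 0.14. Of 5 exporters 2 rose and none fell. These were the transporters MRP, by 0.45 ± 0.15, and Mrp4, by 0.62 ± 0.23, and MRP on day 10 went from between 8038 and 9061 in controls to between 12468 and 12895 at 20000 R. Of 6 other GST-like proteins 1 rose, Gdap1, by 0.35 ± 0.08. With age in controls 4 of the 13 glutathione genes rose by day 10, beside 1.74% of all genes, and none fell. These were Men, Pgd, Idh and Zw, enzymes that make NADPH, by 1.22 ± 0.14, 0.97 ± 0.22, 0.53 ± 0.11 and 0.56 ± 0.16; they were named after their values were seen.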

How the data were processed

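Whole-body messenger RNA of 53 libraries was read from 1 deposited table of normalized read counts (a signal scaled by library). The authors aligned reads with TopHat2 2.0 to build dm3 and normalized with DESeq, per the submitters' processing notes; strand use is not given in the sources used here. All values came out as whole reads (100% within 0.1 of a whole number) after division by each library's step, and these reads served the count tests. Symbols were found for 14347 of 15222 identifiers.

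Log2(normalized count + 1) was fitted with limma 3.58.1 (R 4.3.3; 18 group means, empirical Bayes with a trend) over the 12475 genes with a mean of at least 10. P-values were adjusted over all of them by Benjamini-Hochberg, with a threshold of 0.05. Fold changes are on this scale. The added 1 shrinks the change of low genes, but a library at or near 0 can enlarge it. For GstD7 at 20000 R on day 20 limma gave 3.10 and edgeR 1.46. Changes over days average the 3 daily contrasts. Alternatives were a pseudocount of 10, no filter or a mean of at least 50, quantile and TMM scaling, edgeR 4.0.16 and DESeq2 1.42.0 on the recovered reads, fits of 1 day, and leaving out each library, the 6 few-gene libraries or 9 libraries. The fits were also run on simulated reads with known changes. The simulation held no few-gene libraries, so it does not test how the calls depend on them.

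Values by library are given for members past the threshold in any comparison, and levels for the 3 members highest per kb. GstD5, GstE2, GstE6, GstE11 and GstO1 were described after their values were seen. The members and lists were chosen with earlier results of these data known. Marker lists of gut, fat body, Malpighian tubule, photoreceptor, neuron, accessory gland and female tissue were also read at 20000 R over the days. Of these, 3 of 11 gut markers fell, beside 20.7% of all genes lower, and 1 of 7 accessory gland markers rose, beside 7.72% higher. No marker of the other 5 lists passed the limma test at that dose. At 10000 R over the days the female markers Yp1 and Yp2 rose in limma by 3.72 ± 0.95 and 3.56 ± 1.00 (adjusted p = 0.00214 and 0.00559). The tubule marker ZnT35C changed by -0.35 ± 0.11 there (adjusted p = 0.0102). Of all genes 6.42% were higher and 21.2% lower at that dose. Exon lengths and the exon overlaps between genes come from a BDGP6.54 annotation.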

Additional observations from a re-analysis of the deposited data

Results flagged for a closer look

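The response of GstS1 differed between days after irradiation by the moderated F test in limma, at 10000 R (F = 29.6, adjusted p = 3.47e-07) and at 20000 R (F = 40.1, adjusted p = 1.02e-08). At both doses its log2 change was 0.05 and 0.15 on day 2 and between -1.43 and -1.66 on days 10 and 20, when 6 of 6 libraries of each dose lay below every control of their day. The summed testis markers were lower in the same libraries, and their part in the result was not tested. Groups hold 2 or 3 libraries, too few to test for a library that stands apart within its group.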

How the results depend on the processing

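Of 27 results on single members at doses other than 10 R or with age, none reversed in 1685 settings. In 98 settings a value left the threshold. Most settings left out 1 of the 53 libraries. Where that library lay outside the groups compared, the limma log2 change could not move, so such settings do not test its sign. At 10 R, GstD9 reversed without 9 libraries (0.0048), as did GstE8 (0.15); GstE10 reversed without 6 and 9 libraries (0.066 and 0.11), and so did GstO1 (0.14 and 0.12). No paired analysis was possible because the columns carry no replicate number. Quantile normalization called more of all 12475 genes at 10000 R over days, 6225 in place of 3451. At 20000 R it called 6428 in place of 3549. On day 10 these counts were 5328 in place of 2755 and 5150 in place of 2667. Without 6 or 9 libraries more of all genes were also called at 10000 R and 20000 R, over days and on day 10. At 5000 R over days fewer of all genes were called without them. The counts of members that follow are to be read beside these shifts and are not by themselves a result about the family. Counts of members called over days moved as follows. At 10 R (13) they were 6 under quantile normalization and 0 with edgeR, DESeq2, without 6 and without 9 libraries. At 5000 R (1) they were 2 with a pseudocount of 10, 4 without 6 and 5 without 9. At 10000 R (4) they were 12 under quantile normalization, 2 under TMM, 12 without 6 and 13 without 9. At 20000 R (6) they were 12, 11 and 11 under quantile normalization and without 6 and 9. By day, 5000 R on day 2 (0) gave 2 without 6 and 4 without 9, and on day 10 (0) 1 with DESeq2, without 6 and without 9. At 10000 R on day 10 (4) it was 11 under quantile normalization, 7 without 6 and 9 without 9. On day 20 (1) it was 2 with a pseudocount of 10, 3 under quantile normalization, 2 with DESeq2, 4 without 6 or 9 and 2 in a fit of that day. At 20000 R on day 10 (3) it was 10 under quantile normalization, 8 without 6 or 9 and 5 in a fit of that day. On day 20 (3) it was 5 under quantile normalization, with DESeq2, without 9 and in a fit of that day. Controls by day 10 (2) gave 7 without 6 or 9, and by day 20 (3) 5 with edgeR and 7 without 6 or 9. Members differing between days were 2 in place of 1 at 10000 R without 6, and at 20000 R under quantile normalization and without 6 or 9. Leaving out each library in turn gave 0 to 25 at 10 R (0 without any 1 of 9 libraries, 25 without 10 R day 2 a), 0 at 1000 R, 1 to 4 at 5000 R, 2 to 7 at 10000 R and 5 to 9 at 20000 R over days, the highest of these 3 without 10 R day 2 b. By day it gave 0 to 3, 0 to 1 and 0 to 1 at 5000 R on days 2, 10 and 20, 0, 1 to 5 and 1 to 3 at 10000 R, 0, 3 to 5 and 1 to 6 at 20000 R, 2 to 4 and 2 to 6 in controls by days 10 and 20, and for differences between days 0 to 1 at 5000 R and 1 to 2 at 10000 R and 20000 R. Apart from the libraries and tests left out or exchanged, the cause was not tested. Low members such as GstD2 rest on 29 to 38 reads in day 10 controls, which limits their precision.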
